A study of Mus musculus with 14 samples.

Results

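The data described here are RNA sequencing profiles of mouse HPC-LSK cells that lack Cdk6 and of wild-type HPC-LSK cells, both before any transformation. They comprise 7 of the 14 samples of the series, chosen by their titles: 4 wild-type (WT) and 3 Cdk6 knockout (KO) libraries without BCR-ABL. The other 7 samples carry BCR-ABL p210 and enter only 1 alternative fit, given in the section on processing. HPC-LSK cells are haematopoietic progenitor lines with the surface phenotype Lin-, Sca-1+, Kit+ of the most immature bone marrow cells, and lines of this kind are made by forced expression of the transcription factor Lhx2. Per the labels, both genotypes were on a C57BL/6N background. Both were grown in medium with 12.5 ng/ml IL-6 and 2% SCF, so the cytokines are shared by the groups compared. The labels do not say whether replicates came from separate derivations or separate cultures, and p-values below measure only the spread between these samples.

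CDK6 is a cyclin-dependent kinase that binds D-type cyclins and phosphorylates the retinoblastoma protein RB1 and its relatives, which releases E2F transcription factors and lets cells enter S phase. It also sits on chromatin and takes part in transcription apart from its kinase activity. In blood stem and progenitor cells CDK6 is known for its part in leaving quiescence and in holding back myeloid differentiation. The comparison of KO with WT cells asks which transcripts differ when CDK6 is missing in a progenitor that is not leukaemic.

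The 7 libraries held 20773893 to 50303271 counts and 18726 to 20689 detected genes each, with 1.56% to 2.13% of counts from mitochondrial genes. The 20 most abundant genes took 6.01% to 6.26% of counts in the WT libraries and 7.44% to 8.44% in the KO libraries. The sample descriptions carry 1 of 2 codes, which the labels do not explain: the first stands on WT 1, WT 2, KO 1 and KO 2, the second on WT 3, WT 4 and KO 3. On the first principal component of the 500 most variable genes, which held 71.2% of the variance, the KO libraries lay at -42.1 to -26.0 and WT 1, WT 2 and WT 4 at -6.04 to 21.6. WT 3 stood apart at 74.96. It held mast cell protease transcripts at levels seen in no other of the 7 libraries (Cma1 at 12.3, 6.49, 813 and 0.0525 CPM and Mcpt4 at 20.8, 11.3, 1355 and 0.21 CPM in WT 1 to WT 4) and little of the granule enzyme transcript Mpo (5891, 3004, 40.2 and 1958 CPM). CPM is the count per 1000000 counts of the TMM-scaled library size, a level that is not corrected for gene length. Counts without WT 3 are therefore given beside each lineage result.

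Cdk6 itself (chr5:3341485-3531008, GRCm38) had 1014, 1043, 1269 and 1365 CPM in the WT libraries and 283, 269 and 246 CPM in the KO libraries, a log2 fold change of -2.14 ± 0.13 (adjusted p = 0.0024). The groups did not overlap, and each library matched its label. Reads were counted over all exons, so the KO values include transcript outside any deleted stretch, and the position of the lesion within the gene was not analysed here. The D-cyclin kinase Cdk4 was measured at 575, 627, 593 and 614 CPM in the WT libraries and 559.7, 506 and 608 CPM in the KO libraries and did not pass the test (adjusted p = 0.3).

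Of 13941 genes tested with edgeR's quasi-likelihood test, 1734 (12.4%) rose and 1665 (11.9%) fell in KO cells at an adjusted p under 0.05, together 3399 or 24.4%. Adjusted p-values are Benjamini-Hochberg values over all genes tested, fold changes are log2 values of KO minus WT with their standard error, and rose and fell are used only of genes past this threshold. These shares are the background against which the counts of 52 gene lists below are read. A gene was tested where at least 3 libraries held enough counts, so genes expressed in KO cells alone could enter while genes low throughout did not, and the tested members are not all members of a list. In 11 of the 52 lists no member rose, with at most 3 members of such a list higher at an unadjusted p under 0.05 and at most 2 by DESeq2. In 11 lists, of which the mitochondrially encoded genes are also among the first 11, no member fell, with at most 1 lower at an unadjusted p under 0.05 and at most 1 by DESeq2. The median log2 fold change over all genes tested was -0.02. The split between directions depended on the scaling: with library sizes alone 1327 genes rose and 2916 fell, with a median over all genes of -0.12, and with upper quartile scaling 1546 rose and 2157 fell. Single libraries moved the number of calls, which was 563 without KO 1, 295 without KO 2, 1209 without WT 4 and 2267 without WT 2, against 3900 without WT 1, 3134 without WT 3 and 2650 without KO 3, and 278 genes passed in every one of these 7 fits. At an unadjusted p under 0.05 the fits without KO 1 and without KO 2 held 4549 and 4022 genes, against 5793 with all libraries. Within the first code alone 2800 genes passed. Within the second code, where KO has 1 library that is assumed to vary like the 2 WT libraries, edgeR called 0 genes, and 3342 had an unadjusted p under 0.05. A count of 0 from 3 libraries does not show whether the calls hold within that code. Counts where KO 1, KO 2 or WT 4 was left out, and for many of the groups the median difference within each code, are therefore given below.

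**Figure D1:**
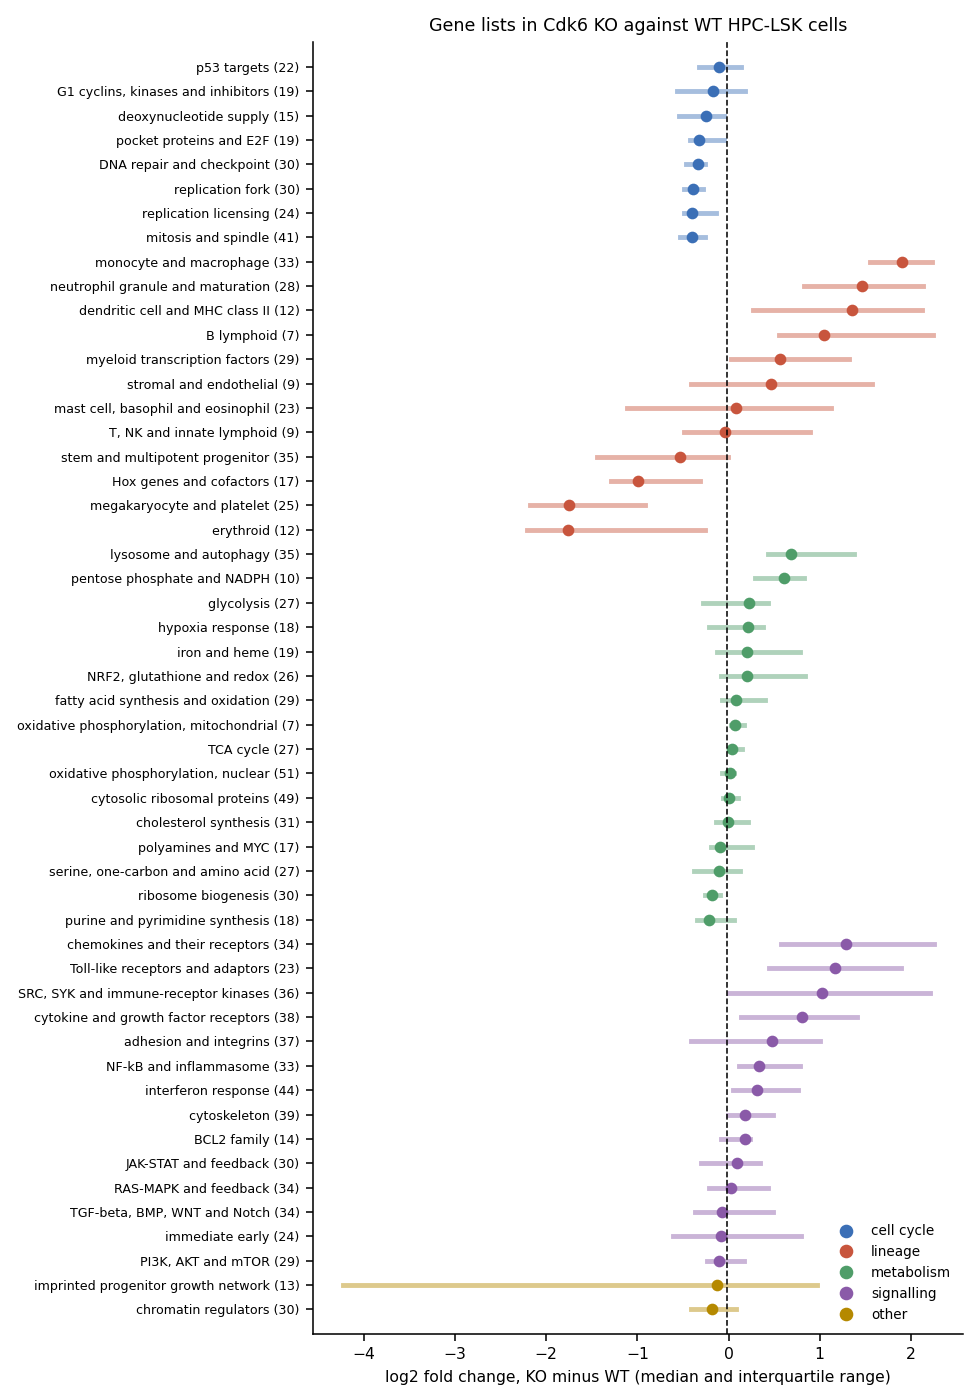
Median log2 fold change (KO minus WT, horizontal axis) of the tested members of 52 gene lists, with the interquartile range as a bar and the number of members tested beside each name, coloured by category. The dashed line marks the median of all genes tested, -0.02; replication, mitosis and repair lists lie between -0.40 and -0.33, while monocyte, neutrophil and Toll-like receptor lists lie above 1.

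Genes of DNA replication were lower in KO cells. Of 24 tested genes of origin licensing, the step that loads the replicative helicase in G1, 13 fell and 0 rose, with a median log2 fold change of -0.40. The MCM2-7 helicase is the ring that unwinds DNA at the fork. Mcm2 stood at 466, 473, 469 and 502 CPM in the WT libraries and 295, 268 and 349 CPM in the KO libraries (log2 fold change -0.65 ± 0.09, adjusted p = 0.011). Mcm3 stood at 623, 643, 582 and 623 CPM in the WT libraries and 423, 376 and 451 CPM in the KO libraries (log2 fold change -0.57 ± 0.08, adjusted p = 0.0097), and Mcm4 fell from 402 to 260.1 CPM. For all 3 the KO libraries lay below every WT library, and KO 3 lay closest to WT. Mcm5, Mcm6 and Mcm7 fell by smaller steps, with log2 fold changes of -0.40, -0.48 and -0.46, so each of the 6 subunits of the ring fell. Orc1, the origin recognition subunit that is made periodically, showed the largest change of the list, from 30.0 to 15.6 CPM (log2 fold change -0.94 ± 0.16, adjusted p = 0.014). The loading factor Cdt1 fell from 118 to 90.3 CPM, whereas Cdc6 (64.1, 65.3, 44.8 and 54.3 CPM in the WT libraries and 45.3, 41.6 and 53.3 CPM in the KO libraries) did not pass. The kinase pair Cdc7 and Dbf4, which fires licensed origins, fell with log2 fold changes of -0.49 and -0.44. Cdc45, which joins MCM2-7 in the active helicase, had a log2 fold change of -0.01 ± 0.14.

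At the replication fork 23 of 30 tested genes fell and 0 rose (median -0.39), and 27 of the 30 had all 3 KO libraries below all 4 WT libraries, against 19.5% of all genes tested. Lig1, which seals Okazaki fragments, stood at 243, 261, 248 and 278 CPM in the WT libraries and 151, 137 and 166 CPM in the KO libraries (log2 fold change -0.77 ± 0.08, adjusted p = 0.0078). The sliding clamp Pcna stood at 268, 296, 276 and 307 CPM in the WT libraries and 218, 190.0 and 226 CPM in the KO libraries (log2 fold change -0.44 ± 0.08, adjusted p = 0.016). The primase and polymerase alpha subunits Prim1 and Pola1 fell with log2 fold changes of -0.60 and -0.66, and the checkpoint mediator Clspn fell by 0.53 on the log2 scale. The leading-strand polymerase subunit Pole fell from 165 to 113 CPM. Rpa1, the largest subunit of the single-strand binding protein, was measured at 273, 267, 287 and 274 CPM in WT and 216, 209.8 and 260.1 CPM in KO, short of the threshold (adjusted p = 0.055). Each fork gene that fell did so by less than 1 log2 unit.

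Enzymes that supply deoxynucleotides were lower in part, with 7 of 15 tested members down and 1 up (median -0.25, within the codes -0.30 and -0.19). Rrm1, the large subunit of ribonucleotide reductase, stood at 687, 735, 734 and 738 CPM in the WT libraries and 489, 451 and 567 CPM in the KO libraries (log2 fold change -0.53 ± 0.09, adjusted p = 0.013). Tk1, Dut and Tyms, which make or clean the thymidine pool, fell with log2 fold changes of -0.58, -0.59 and -0.56. The 1 member that rose was Samhd1, a triphosphohydrolase that degrades deoxynucleotides and is known for its high level in myeloid cells, at 169, 148, 119.6 and 143 CPM in the WT libraries and 241, 283 and 228 CPM in the KO libraries (log2 fold change 0.79 ± 0.13, adjusted p = 0.013). Rrm2, the regulated small subunit, stood at 252, 227, 157 and 207 CPM in WT and 201, 192 and 181 CPM in KO with overlap between the groups. Without KO 1, KO 2 and WT 4, 2, 3 and 4 of these genes fell.

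The promoters of 3 helicase subunits are shown because their genes fell together and their windows hold the E2F word before the start. For Mcm2, Mcm3 and Mcm4, which fell by larger steps, no window with the word before the start was found. Of 24 tested licensing genes 19 had a window. Whether Mcm2, Mcm3 and Mcm4 were among them, or hold the word after the start, is not given here. Each line gives the 250 bases before the RefSeq transcription start (GRCm38.p6), read in the direction of the gene, with matches to TTTGGCGC or TTTCCCGC on either strand in capitals. The windows are chr8:75109259-75109508 on the plus strand for Mcm5, chr1:128359706-128359955 on the minus strand for Mcm6 and chr5:138171884-138172133 on the minus strand for Mcm7.
Mcm5: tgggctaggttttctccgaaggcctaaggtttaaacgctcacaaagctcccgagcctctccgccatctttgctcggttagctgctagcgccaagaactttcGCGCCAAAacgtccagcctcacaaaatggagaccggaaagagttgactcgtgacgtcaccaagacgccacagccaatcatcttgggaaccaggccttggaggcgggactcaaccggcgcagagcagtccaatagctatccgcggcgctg
Mcm6: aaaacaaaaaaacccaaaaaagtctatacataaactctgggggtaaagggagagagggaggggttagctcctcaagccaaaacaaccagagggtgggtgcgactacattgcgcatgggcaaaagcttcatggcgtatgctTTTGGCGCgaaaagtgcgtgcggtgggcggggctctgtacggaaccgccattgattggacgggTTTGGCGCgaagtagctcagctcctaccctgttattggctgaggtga
Mcm7: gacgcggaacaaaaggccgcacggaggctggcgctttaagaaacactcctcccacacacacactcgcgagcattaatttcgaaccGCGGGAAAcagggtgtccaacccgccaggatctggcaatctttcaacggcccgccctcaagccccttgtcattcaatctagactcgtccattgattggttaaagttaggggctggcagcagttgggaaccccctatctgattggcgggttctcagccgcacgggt
Among windows of 300 bases around the start (250 before to 50 after), 9 of 24 windows of the tested licensing genes (37.5%) held at least 1 of these words, as did 7 of 31 windows of the fork genes (22.6%) and 5 of 27 windows of the repair genes (18.5%), against 2 of 36 windows of the mitosis genes (5.56%). A gene can have more than 1 window. Of the genes with a window, 9 of 19 licensing, 6 of 26 fork, 5 of 23 repair and 2 of 34 mitosis genes held a word. The share was 2.94% of the 12896 windows of all genes tested and 1.56% of all 32851 windows. It was 5.85% for windows of all genes that fell and 1.75% for windows of all genes that rose. A match describes letters in the window and not a bound site.

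Mitotic genes were lower as well. Of 41 tested genes of mitosis and the spindle, 29 fell and 0 rose (median -0.40), and 34 had no overlap with KO below WT. Top2a, which untangles sister chromatids, stood at 1015, 1010.0, 1059.7 and 920.0 CPM in the WT libraries and 728, 725 and 785 CPM in the KO libraries (log2 fold change -0.42 ± 0.07, adjusted p = 0.012). The proliferation marker Mki67 stood at 626, 633, 856 and 736 CPM in the WT libraries and 458, 485 and 519.6 CPM in the KO libraries (log2 fold change -0.55 ± 0.12, adjusted p = 0.023). Both stood lowest in KO 1 or KO 2 and nearest to WT in KO 3. The mitotic cyclins Ccnb1 and Ccnb2 fell with log2 fold changes of -0.69 and -0.78, their kinase Cdk1 with -0.44 and the activating phosphatases Cdc25b and Cdc25c with -0.93 and -0.74. Condensin subunits (Smc2, Smc4, Ncapd2, Ncapg and Ncaph) fell with log2 fold changes between -0.54 and -0.37. The mitotic kinases Aurkb and Plk1 did not pass, at log2 fold changes of -0.15 and -0.21. Of 30 tested genes of DNA repair and checkpoints 19 fell and 0 rose (median -0.33), among them the maintenance methyltransferase Dnmt1 (from 751 to 547 CPM), its cofactor Uhrf1 (from 242 to 163 CPM) and the checkpoint kinase Chek1 (from 45.4 to 30.4 CPM).

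Within the first code the median differences of the licensing, fork, mitosis and repair lists were -0.51, -0.45, -0.42 and -0.40, and within the second code -0.17, -0.27, -0.33 and -0.21. The medians lay below 0 with any 1 library left out, between -0.48 and -0.28 for licensing and between -0.44 and -0.35 for mitosis. The calls did not hold to the same degree. In the fits without KO 1, 4 licensing, 6 fork, 1 mitosis and 3 repair genes fell, and without KO 2 the counts were 4, 5, 1 and 2. Without WT 4 the counts were 8, 14, 21 and 10, and without WT 3 they were 15, 24, 27 and 20.

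**Figure D2:**
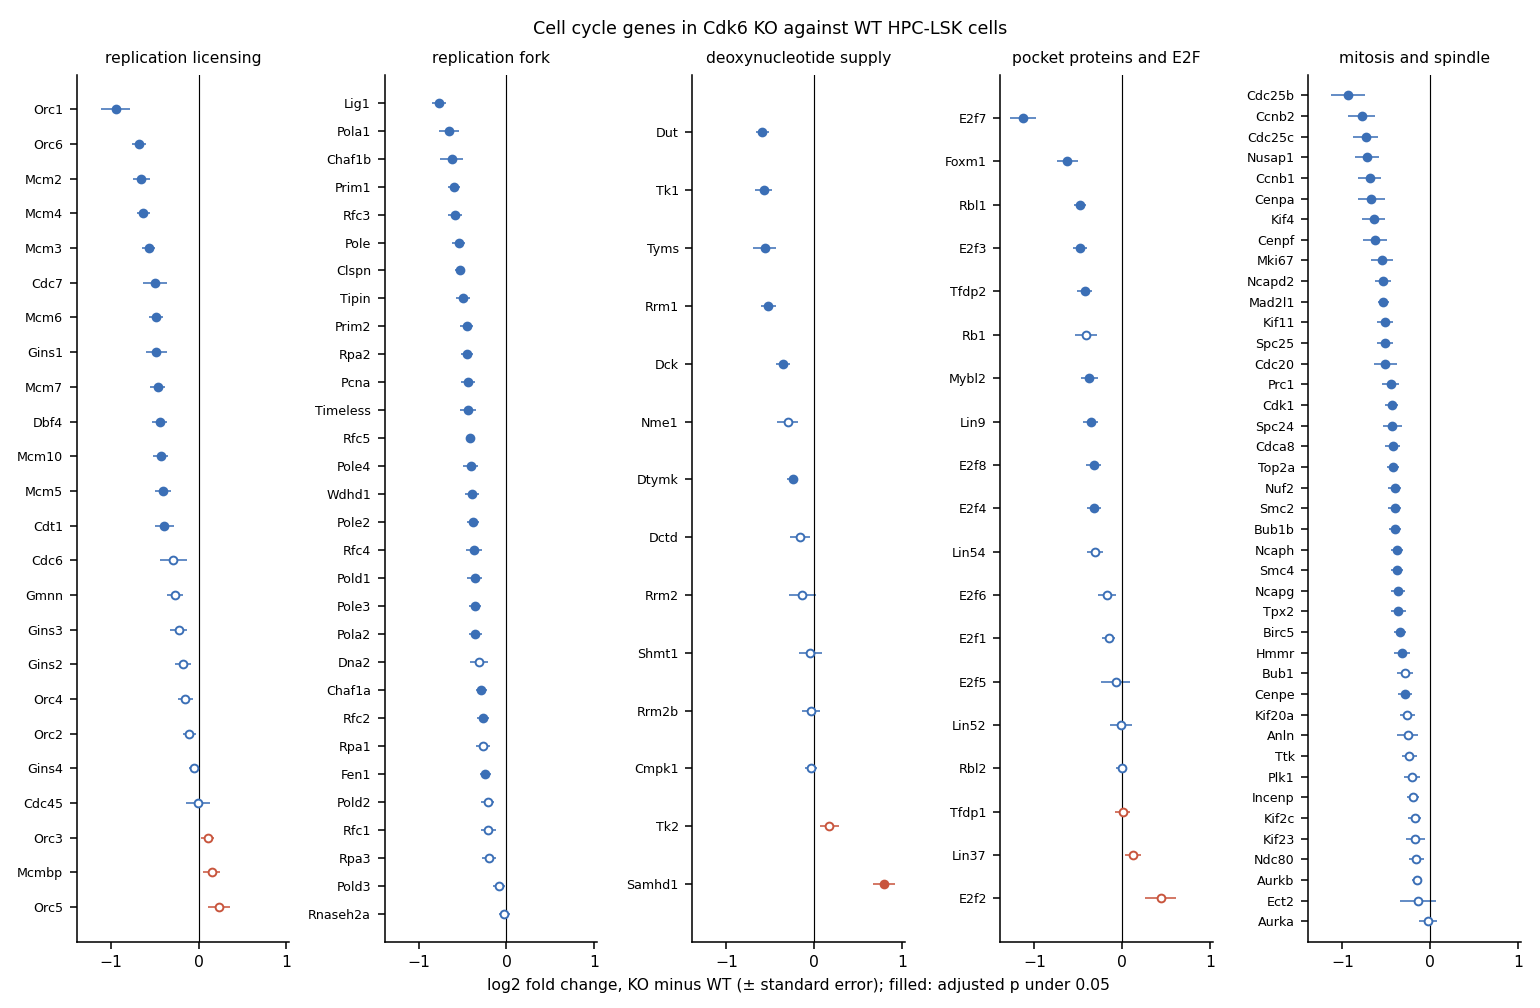
Log2 fold change (KO minus WT, with its standard error) of the tested members, with 1 deoxynucleotide gene left out, of the licensing, fork, deoxynucleotide, pocket protein and E2F, and mitosis lists, ordered within each list and filled where the adjusted p was under 0.05. Filled points lie below 0 in every list with the exception of Samhd1.

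The G1 regulators upstream of these genes did not move as a block. Of 19 tested members 2 rose and 5 fell, Cdk6 included. The INK4 inhibitor Cdkn2c (p18), which binds CDK4 and CDK6, stood at 32.0, 35.5, 44.5 and 45.4 CPM in the WT libraries and 16.4, 13.4 and 13.1 CPM in the KO libraries (log2 fold change -1.46 ± 0.16, adjusted p = 0.0078). Of the D-type cyclins, the partners of CDK6, Ccnd1 rose from 10.2 to 52.6 CPM (log2 fold change 2.37 ± 0.57, adjusted p = 0.03) and Ccnd3 from 231 to 285 CPM (log2 fold change 0.30 ± 0.08, adjusted p = 0.034). Ccnd2, the third D-type cyclin, stood at 269, 260.0, 198 and 287 CPM in WT and 367, 302 and 386 CPM in KO (adjusted p = 0.052). The S-phase cyclin Ccna2 fell from 335 to 195 CPM and the E-type cyclin Ccne2 from 38.3 to 24.4 CPM. The CIP/KIP inhibitors Cdkn1a and Cdkn1b did not pass, at log2 fold changes of -0.27 ± 0.23 and -0.10 ± 0.09. After leaving out KO 1 or KO 2, 2 and 2 of these genes fell and 0 rose, and without WT 4 3 fell and 1 rose. The medians within the codes were -0.17 and -0.24.

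Of 19 tested pocket proteins, E2F factors and DREAM or MuvB partners, 9 fell and 0 rose (median -0.32, within the codes -0.28 and -0.26). E2f7, a repressor of the family that is itself transcribed in S phase, fell from 42.0 to 19.2 CPM (log2 fold change -1.13 ± 0.15, adjusted p = 0.0093). The pocket protein Rbl1 (p107) fell from 132 to 94.9 CPM, and the mitotic gene activators Foxm1 and Mybl2 fell with log2 fold changes of -0.63 and -0.37. Rb1 stood at 77.7, 77.0, 106 and 91.7 CPM in the WT libraries and 62.9, 72.2 and 64.0 CPM in the KO libraries and missed the threshold (adjusted p = 0.055). The activator E2f1 had a log2 fold change of -0.16 ± 0.07 and did not pass. Without KO 1, KO 2 or WT 4 the members that fell were 2, 1 and 5. Of 22 tested targets of the p53 pathway 2 rose and 3 fell, with a median of -0.11. The stress-induced gene Gadd45a rose from 8.78 to 18.1 CPM and Zmat3, an RNA-binding target, fell from 42.5 to 19.9 CPM, at adjusted p of 0.047 and 0.049, and without KO 1, KO 2 or WT 4 0, 0 and 1 of these genes passed.

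Genes of stem and multipotent progenitor cells were lower in part. Of 35 tested markers 11 fell and 0 rose (median -0.53). Kit, the SCF receptor that helps define the LSK fraction, stood at 447, 492, 488 and 376 CPM in the WT libraries and 289, 259 and 265 CPM in the KO libraries (log2 fold change -0.74 ± 0.11, adjusted p = 0.011). Mecom, a transcription factor of long-term stem cells, stood at 17.6, 36.0, 16.8 and 20.3 CPM in the WT libraries and 4.66, 2.71 and 8.03 CPM in the KO libraries (log2 fold change -2.13 ± 0.45, adjusted p = 0.021). Hlf, another stem cell factor, stood at 99.2, 162, 52.0 and 54.3 CPM in the WT libraries and 20.4, 15.8 and 32.4 CPM in the KO libraries (log2 fold change -2.00 ± 0.49, adjusted p = 0.031). In each of the 3 the groups did not overlap, and for Mecom and Hlf the WT libraries themselves differed by more than 2-fold. The receptor Tek (from 76.8 to 13.3 CPM) and its ligand Angpt1 (from 583 to 326 CPM) both fell, as did the SLAM marker Slamf1 (from 26.5 to 6.11 CPM), Gata2 (from 385 to 213 CPM) and Mycn (from 44.9 to 13.1 CPM). Not all markers of the list moved. Cd34 was measured at 1089, 1427, 729 and 805 CPM in the WT libraries and 941, 817 and 1244 CPM in the KO libraries. The Sca-1 gene Ly6a was measured at 46.7, 117, 38.5 and 14.2 CPM in the WT libraries and 28.0, 27.6 and 44.1 CPM in the KO libraries. Both overlapped between the groups and did not pass. Lhx2, the factor used to make such lines, stood at 2083, 3274, 2748 and 2246 CPM in the WT libraries and 1591, 1304 and 2481 CPM in the KO libraries and did not pass (adjusted p = 0.17). The median difference was -0.58 within the first code and -0.17 within the second. In the fits without KO 1, KO 2 and WT 4, 3, 0 and 6 members fell, and without WT 3 11.

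Hox genes and their cofactors were lower in part. Of 17 tested (of 26 found in the files), 6 fell and 1 rose (median -0.99, within the codes -0.83 and -0.41). The cofactor Meis1 stood at 127, 172, 196 and 200.3 CPM in the WT libraries and 95.6, 66.4 and 80.6 CPM in the KO libraries (log2 fold change -1.11 ± 0.19, adjusted p = 0.014). Pbx3 fell from 29.9 to 12.3 CPM. Among Hox genes Hoxa9, the most studied in myeloid progenitors, fell from 33.6 to 9.41 CPM (log2 fold change -1.83 ± 0.52, adjusted p = 0.046), and Hoxa7 stood at 25.3, 51.1, 33.7 and 42.0 CPM in WT and 13.8, 10.1 and 33.1 CPM in KO with overlap (adjusted p = 0.14). The 1 member that rose was Pbx2, with a log2 fold change of 0.21. After leaving out KO 1, KO 2 or WT 4 the members that fell numbered 1, 0 and 1, and without WT 3 5.

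Erythroid and megakaryocytic genes were lower in KO cells by larger steps. Of 24 erythroid genes found in the files 12 passed the filter on low counts, and 6 of these fell and 0 rose (median -1.76, within the codes -0.85 and -1.60). The lineage factor Gata1 stood at 29.0, 12.5, 43.8 and 24.7 CPM in the WT libraries and 9.32, 7.26 and 5.38 CPM in the KO libraries (log2 fold change -1.92 ± 0.44, adjusted p = 0.025). Its cofactor Zfpm1 stood at 185, 165, 352 and 291 CPM in the WT libraries and 100.3, 68.0 and 101 CPM in the KO libraries (log2 fold change -1.47 ± 0.31, adjusted p = 0.021). Car2, carbonic anhydrase 2, fell from 294 to 31.6 CPM, and the erythropoietin receptor Epor from 6.65 to 1.23 CPM. Of 25 tested megakaryocyte and platelet genes (of 25 found) 8 fell and 1 rose (median -1.75). Itga2b, the alpha subunit of the platelet fibrinogen receptor, stood at 1359, 1671, 3295 and 2792 CPM in the WT libraries and 903, 558 and 679 CPM in the KO libraries (log2 fold change -1.68 ± 0.36, adjusted p = 0.022). Vwf, the platelet adhesion protein, stood at 277, 479, 730.4 and 479 CPM in the WT libraries and 102, 85.6 and 125 CPM in the KO libraries (log2 fold change -2.24 ± 0.33, adjusted p = 0.012). Every KO library lay below every WT library for both, and in both WT 1 was the lowest WT library. The platelet chemokine Pf4 stood at 612, 749.7, 1817 and 1329 CPM in the WT libraries and 612, 346 and 416 CPM in the KO libraries and did not pass (adjusted p = 0.065). The gene that rose was Nbeal2 (from 139 to 198 CPM), and Thbs1, a platelet granule protein that macrophages also make, stood at 275, 289, 14.7 and 169 CPM in WT and 837, 1219 and 1147 CPM in KO (adjusted p = 0.066). The median differences of the megakaryocyte list were -0.56 and -2.25 within the first and second code. Without KO 1 or KO 2, 0 and 0 megakaryocyte genes fell, without WT 4 2, without WT 3 7 and without WT 1 12. The erythroid counts in these 5 fits were 1, 2, 3, 6 and 5. In bulk samples fewer cells of a type and less RNA per cell cannot be told apart, which holds for each lineage result here.

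Monocyte and macrophage genes were higher in KO cells. Of 33 tested markers (of 34 found) 17 rose and 0 fell, with a median log2 fold change of 1.90, and 25 had every KO library above every WT library, against 21.2% of all genes tested. Lyz2, lysozyme, stood at 2388, 1359, 182 and 1054 CPM in the WT libraries and 8230.0, 12242 and 7809 CPM in the KO libraries (log2 fold change 2.92 ± 0.74, adjusted p = 0.033). Csf1r, the receptor for the macrophage growth factor CSF1, stood at 219.8, 91.7, 16.8 and 91.6 CPM in the WT libraries and 558, 747 and 451 CPM in the KO libraries (log2 fold change 2.48 ± 0.73, adjusted p = 0.049). In both genes WT 1 was the highest and WT 3 the lowest of the WT libraries. Mrc1, the mannose receptor, stood at 34.3, 26.5, 18.0 and 22.9 CPM in the WT libraries and 128, 142 and 88.3 CPM in the KO libraries (log2 fold change 2.23 ± 0.25, adjusted p = 0.0084). The integrin subunit Itgam (CD11b) rose from 43.0 to 205 CPM and the surface antigen Adgre1 (F4/80) from 50.5 to 287 CPM. Ctsb and Ctsd, lysosomal proteases abundant in macrophages, rose from 737 to 2625 CPM and from 571 to 1463 CPM. The macrophage transcription factor Maf rose from 7.07 to 24.6 CPM. The adaptor Tyrobp, which carries signals of several myeloid receptors, rose from 94.0 to 524 CPM, and the phagocytic receptor genes Cd68 and Cd36 rose from 53.5 to 211 CPM and from 16.2 to 60.4 CPM. Some members with high levels did not pass. Apoe, the lipid carrier, stood at 181, 405, 273 and 33.6 CPM in the WT libraries and 512, 460.3 and 330.1 CPM in the KO libraries, with overlap. The protease Ctss stood at 339, 237, 25.5 and 81.8 CPM in the WT libraries and 785, 1130.3 and 445 CPM in the KO libraries (adjusted p = 0.089). Mpeg1, a macrophage perforin, was measured at 278, 158, 26.9 and 91.9 CPM in WT and 652, 932 and 348 CPM in KO (adjusted p = 0.066), higher in each KO library than in each WT library.

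Granule genes of neutrophils had higher values as well, but the share that rose was near that of all genes. Of 28 tested members (of 29 found) 4 rose (14.3%, against 12.4% of all genes tested) and 0 fell. For 16 members the groups did not overlap, with KO above WT, against 21.2% of all genes tested. The median was 1.46. The collagenase Mmp8 stood at 73.4, 11.6, 5.75 and 63.9 CPM in the WT libraries and 377, 470.0 and 181 CPM in the KO libraries (log2 fold change 3.15 ± 0.91, adjusted p = 0.048). The NADPH oxidase subunit Cyba stood at 146, 113, 85.8 and 92.5 CPM in the WT libraries and 296, 336 and 222 CPM in the KO libraries (log2 fold change 1.38 ± 0.22, adjusted p = 0.013). Mpo was measured at 13433, 15273 and 12090 CPM in KO cells. Against the WT values given above its log2 fold change was 2.32 ± 1.17 (adjusted p = 0.18). The azurophil granule protease Ctsg stood at 707, 206, 9.31 and 196 CPM in the WT libraries and 1437, 1744 and 1335 CPM in the KO libraries (adjusted p = 0.14), and Prtn3, another of this class, at 783, 412, 25.4 and 366 CPM in the WT libraries and 1520.0, 1613 and 1130.3 CPM in the KO libraries (adjusted p = 0.16). In both WT 3 was far below the other WT libraries. Without WT 3 15 neutrophil and 20 monocyte genes rose, with medians of 1.29 and 1.64. In the fits without KO 1, KO 2 and WT 4 the monocyte count was 1, 1 and 5 and the neutrophil count 0, 0 and 1, with medians between 1.64 and 2.27 for monocytes and between 1.29 and 1.95 for neutrophils over all 7 such fits. Within the first code the medians were 1.73 and 1.73, and within the second 2.34 and 2.62. The second code holds KO 3, WT 3 and WT 4, so its values here and for the other lists rest in part on WT 3. The summed level of the neutrophil list was 569 CPM in WT 3, against 4500 to 9948 CPM in the other WT libraries.

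**Figure D3:**
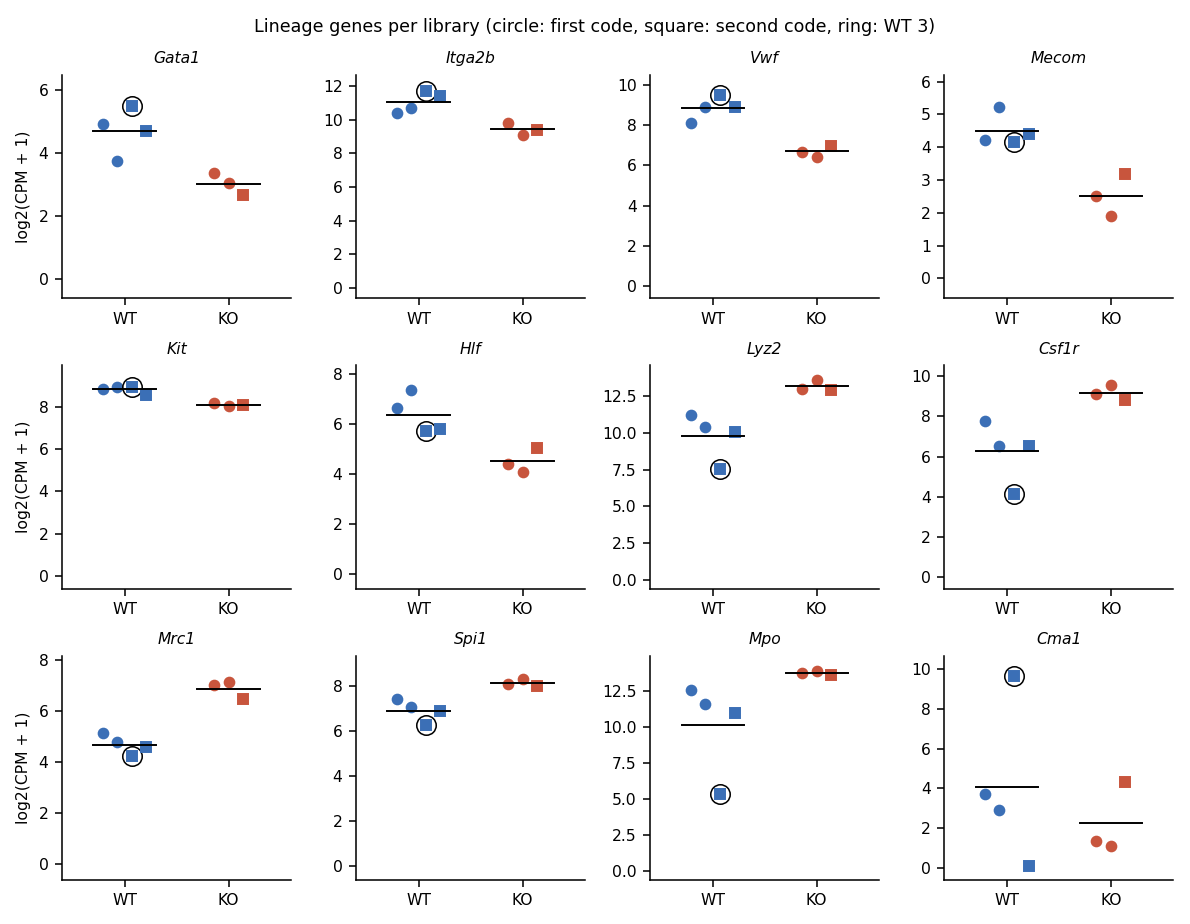
TMM-scaled level (log2 of CPM + 1, vertical axis) of 12 lineage genes in each of the 4 WT and 3 KO libraries, with the mean of the plotted values as a line and the code of the sample description as the marker shape. Gata1, Itga2b, Vwf and Mecom lie lower in each KO library and Lyz2, Csf1r, Mrc1 and Spi1 higher; WT 3, ringed, is low in Mpo and high in Cma1.

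Among 29 tested myeloid transcription factors 5 rose (17.2%, against 12.4% of all genes tested) and 1 fell. In either direction 20.7% passed, against 24.4% of all genes tested. Spi1 (PU.1), the master regulator of the myeloid lineages, stood at 171, 134, 76.4 and 119 CPM in the WT libraries and 277, 324 and 260.1 CPM in the KO libraries (log2 fold change 1.20 ± 0.25, adjusted p = 0.021). Cebpd and Irf5, factors of granulocytes and of inflammatory macrophages, rose from 13.7 to 42.9 CPM and from 13.9 to 43.8 CPM. Cebpa, which commits progenitors to the granulocyte and monocyte lineages, stood at 116, 79.4, 6.41 and 54.9 CPM in the WT libraries and 161, 167 and 154 CPM in the KO libraries and did not pass (adjusted p = 0.23). Irf8, the monocyte and dendritic cell factor, stood at 18.4, 4.73, 1.12 and 7.56 CPM in WT and 37.5, 54.4 and 24.6 CPM in KO (adjusted p = 0.075). Runx3 fell from 219 to 146 CPM. Runx1 stood at 198, 185, 208 and 268 CPM in WT and 207, 188 and 196 CPM in KO with overlap between the groups. After leaving out KO 1, KO 2 or WT 4, 0 members passed, and without WT 3 7 rose and 1 fell. The medians within the codes were 0.39 and 0.78.

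Mast cell and basophil genes gave no common direction: 4 of 23 tested rose and 2 fell. The basophil protease Mcpt8 stood at 126, 50.7, 12.8 and 26.3 CPM in the WT libraries and 279, 272 and 404 CPM in the KO libraries (log2 fold change 2.57 ± 0.72, adjusted p = 0.045), and the shared receptor subunit Csf2rb rose from 230.4 to 616 CPM. The mast cell proteases named for WT 3 did not pass, with KO values of 1.52, 1.11 and 18.8 CPM for Cma1 and 4.75, 4.35 and 43.3 CPM for Mcpt4. Cpa3, carboxypeptidase A3, was measured at 1144, 509, 1552 and 614 CPM in WT and 1744, 1715 and 1515 CPM in KO. The summed level of the mast cell list was 2172 to 8528 CPM in WT and 4099 to 4409 CPM in KO, and without WT 3 4 members rose and 2 fell (median 0.73). The calls in this list were 1 without KO 1, 0 without KO 2 and 3 without WT 4, and its median was -0.37 without KO 2 and -0.07 without WT 2, against 0.08 with all libraries. Csf2rb has a near-identical copy, Csf2rb2, and its counts are uncertain. Few lymphoid genes passed the filter (7 of 20 B lymphoid and 9 of 30 T, NK and innate lymphoid genes). Ighm, the immunoglobulin mu chain, rose from 8.71 ± 5.75 to 80.9 ± 11.1 CPM (SD, n = 4 WT and 3 KO, log2 fold change 3.23 ± 0.55, adjusted p = 0.014), and its unrearranged locus is known to be transcribed in early progenitors. The adaptor Blnk rose from 2.59 to 11.8 CPM, while the defining B cell gene Pax5 and the T cell genes Cd3e and Cd8a did not pass the filter. Of 12 tested dendritic cell and MHC class II genes 2 rose and 1 fell. Cd74, the invariant chain, stood at 53.8, 44.8, 2.21 and 6.53 CPM in WT and 86.4, 98.2 and 159 CPM in KO (adjusted p = 0.15). Of 9 tested stromal and endothelial genes 1 rose (Kdr, from 0.78 to 4.23 CPM) and 1 fell (Tie1, from 209 to 86.4 CPM), and 11 of the 20 found, Cdh5, Pdgfra and Col1a1 among them, did not pass the filter. Without WT 3 the calls were 2 B lymphoid, 2 T and NK, 5 dendritic and 3 stromal genes, against 2, 3, 3 and 2 with all libraries. Without KO 1 the 4 lists had 0, 0, 0 and 0 calls, without KO 2 0, 0, 0 and 0, and without WT 4 2, 0, 2 and 0. The medians of the dendritic list within the codes were 0.64 and 2.73.

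Lysosomal genes, which code for the acid hydrolases and membrane proteins of the degradative compartment, were higher in KO cells. Of 35 tested genes of lysosomes and autophagy 23 rose and 0 fell (median 0.69), and 28 had each KO library above each WT library. Psap, the precursor of the saposins that activate sphingolipid hydrolases, stood at 1673, 1184, 487 and 826 CPM in the WT libraries and 4171, 5294 and 3161 CPM in the KO libraries (log2 fold change 2.01 ± 0.41, adjusted p = 0.02). Lamp1, the main lysosomal membrane glycoprotein, stood at 581, 496, 396 and 468 CPM in the WT libraries and 916, 1184 and 905 CPM in the KO libraries (log2 fold change 1.05 ± 0.15, adjusted p = 0.011). The hydrolases Hexa and Asah1 rose with log2 fold changes of 0.98 and 0.94, and the sialidase Neu1 from 44.0 to 124 CPM. Lipa, which frees cholesterol and fatty acids, rose from 113 to 314 CPM, and the cholesterol carrier Npc2 from 331 to 631 CPM. Among regulators Tfe3, a transcription factor of lysosomal genes, rose from 48.1 to 72.1 CPM (log2 fold change 0.59 ± 0.08, adjusted p = 0.01). Its relative Tfeb stood at 21.2, 21.1, 12.5 and 17.8 CPM in WT and 29.6, 34.5 and 23.6 CPM in KO and missed the threshold (adjusted p = 0.056). The autophagy genes Sqstm1 and Map1lc3b rose with log2 fold changes of 0.43 and 0.28, while Ulk1 had a value of -0.16 and did not pass. Several of these genes are also on the macrophage list (Ctsb, Ctsd and Ctss). The summed level of the monocyte list was 2484 to 7809 CPM in the WT libraries and 17171 to 28103 CPM in the KO libraries, and that of the neutrophil list 569 to 9948 and 18602 to 24272 CPM. The part of these lineage markers in the lysosomal, receptor and innate immune results was not tested. The medians within the codes were 0.59 and 0.86. Without KO 1, KO 2 and WT 4, 7, 6 and 11 lysosomal genes rose, and the median lay between 0.58 and 0.83 with any 1 library left out.

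Of 10 tested genes of the pentose phosphate pathway and NADPH supply 4 rose and 0 fell (median 0.61, within the codes 0.46 and 0.74). G6pdx, the entry enzyme, stood at 274, 220.0, 152 and 208 CPM in the WT libraries and 424, 507 and 505 CPM in the KO libraries (log2 fold change 1.16 ± 0.19, adjusted p = 0.013). The second dehydrogenase Pgd stood at 278, 212, 181 and 207 CPM in the WT libraries and 351, 399 and 326 CPM in the KO libraries (log2 fold change 0.71 ± 0.15, adjusted p = 0.02). The transaldolase Taldo1 rose from 276 to 439 CPM (log2 fold change 0.67 ± 0.10, adjusted p = 0.011). Nadk, which makes NADP, rose from 185 to 363 CPM. The transketolase Tkt stood at 1161, 1144, 899 and 1014 CPM in WT and 1212, 1216 and 1169 CPM in KO, short of the threshold. In the fits without KO 1, KO 2 and WT 4, 3, 0 and 3 of these genes rose.

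Redox and iron genes changed in both directions. Of 26 tested NRF2, glutathione and redox genes 7 rose and 3 fell. Gsr, glutathione reductase, stood at 226, 145, 112 and 150.2 CPM in the WT libraries and 329, 379.5 and 364 CPM in the KO libraries (log2 fold change 1.18 ± 0.22, adjusted p = 0.017), and the peroxidase Gpx1 rose from 968 to 1587 CPM. Nqo1, a standard target of NRF2, fell from 16.2 to 7.76 CPM, and Txnrd1, thioredoxin reductase, stood at 337, 412, 608 and 456 CPM in WT and 287, 274 and 322 CPM in KO (adjusted p = 0.058). Hmox1, haem oxygenase, rose from 49.2 to 150.0 CPM. Of 19 tested iron and haem genes 4 rose and 3 fell: the ferritin light chain Ftl1 rose from 147 to 344 CPM and the iron exporter Slc40a1 from 12.7 to 37.9 CPM, whereas the haem synthesis enzymes Alad and Urod fell with log2 fold changes of -0.84 and -0.35. Ftl1 has several near-identical copies, and its counts are uncertain. The transferrin receptor Tfrc was at 843, 740.5, 523 and 541 CPM in WT and 797, 858 and 856 CPM in KO. After leaving out KO 1 or KO 2, 0 of the redox genes passed in either direction, and without WT 4 3. The medians of the redox list within the codes were 0.25 and 0.07. For the iron list the calls without KO 1, KO 2 and WT 4 were 1, 1 and 3.

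Genes of amino acid, nucleotide and ribosome synthesis were lower in part. Of 27 tested genes of serine, one-carbon and amino acid metabolism 9 fell and 2 rose. Psat1, an enzyme of serine synthesis, stood at 562, 575, 899.8 and 757 CPM in the WT libraries and 379, 305 and 414 CPM in the KO libraries (log2 fold change -0.93 ± 0.20, adjusted p = 0.021), while Phgdh, the enzyme before it, had a log2 fold change of -0.01 ± 0.09. The amino acid transporters Slc7a5, Slc1a5 and Slc7a1 fell with log2 fold changes of -0.49, -0.26 and -0.41. Of 18 tested purine and pyrimidine genes 7 fell, among them Ctps, Cad and Paics (-0.46, -0.45 and -0.39), and 2 rose, Aprt and Impdh1 (0.52 and 0.45). Aprt is a salvage enzyme. Of 30 tested ribosome biogenesis genes 10 fell and 0 rose, with Nop58 (-0.46) and Ddx21 (-0.43) among the larger changes. Of 49 tested ribosomal protein genes 1 fell and 0 rose, with a median of 0.00 whose sign changed with the scaling. Myc stood at 195, 151, 135 and 172 CPM in WT and 182, 176 and 134 CPM in KO with overlap between the groups, whereas Mycn, as given above, fell. Sat1, which breaks down polyamines, rose from 41.5 to 108 CPM, and Odc1, which starts their synthesis, fell from 119 to 94.1 CPM. Without KO 1 or KO 2, 0 genes of the serine, nucleotide and ribosome biogenesis lists passed, and without WT 4 3, 4 and 1 fell.

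In central carbon metabolism 11.1% of the glycolysis list and 22.2% of the TCA cycle list passed, against 24.4% of all genes tested. Of 27 tested glycolysis genes 1 rose and 2 fell. Hk1, a hexokinase, fell from 905 to 641 CPM and the glucose transporter Slc2a3 from 271 to 121 CPM, while Pfkfb3, which makes the activator of phosphofructokinase, rose from 81.8 to 138 CPM. The enzymes Pkm, Ldha and Aldoa had log2 fold changes of 0.42 ± 0.19, -0.20 ± 0.09 and 0.57 ± 0.25 and did not pass. Of 27 TCA cycle genes 3 rose and 3 fell, and of 51 nuclear genes of oxidative phosphorylation 4 rose and 1 fell, with medians of 0.04 and 0.01 whose signs changed with the scaling. For oxidative phosphorylation that is 9.8% of its genes, against 24.4% of all genes tested. Of 7 tested mitochondrially encoded genes edgeR called 0, and 1 had an unadjusted p under 0.05, and DESeq2 called 0. Lipid genes that passed included some of storage and efflux. Plin2, which coats lipid droplets, stood at 106, 76.2, 43.2 and 57.3 CPM in the WT libraries and 202, 231 and 128 CPM in the KO libraries (log2 fold change 1.41 ± 0.33, adjusted p = 0.028). Dgat1, which makes triglycerides, rose from 18.2 to 38.2 CPM, and Abca1, the cholesterol exporter, rose from 20.01 to 76.3 CPM. Its regulator Nr1h3 (LXR alpha) rose from 2.53 to 8.63 CPM. The sterol synthesis gene Sqle had a log2 fold change of -0.10 and did not pass, while its activator Srebf2 fell from 627 to 499 CPM. In total 2 of 31 tested cholesterol genes rose and 3 fell, and 6 of 29 fatty acid genes rose and 2 fell. These are 16.1% and 27.6% of the lists. Of 18 tested hypoxia genes 1 rose, Hif1a (from 149.8 to 210.1 CPM). In the fits without KO 1 the glycolysis, TCA cycle, cholesterol and fatty acid lists had 0, 1, 0 and 2 calls, and without KO 2 0, 0, 0 and 1. Without WT 4 they had 1, 1, 1 and 3. The calls among nuclear genes of oxidative phosphorylation were 0, 0 and 1 in these 3 fits.

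**Figure D4:**
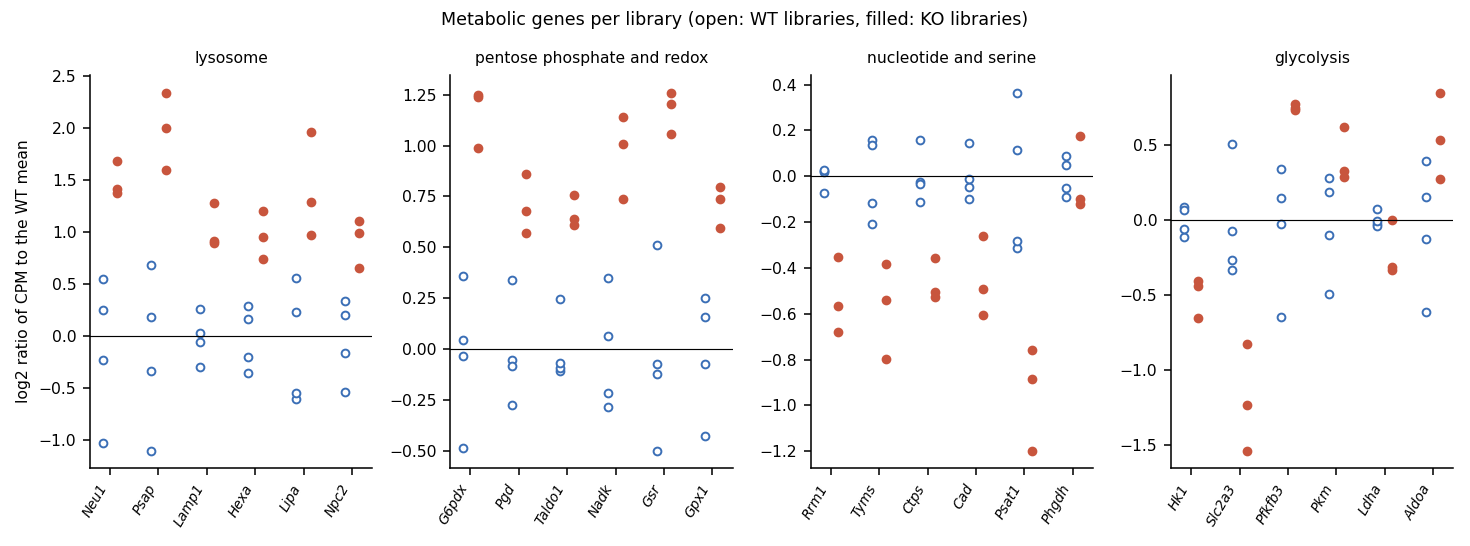
Level relative to the mean of the WT libraries (log2 ratio of CPM, vertical axis) in each of the 7 libraries for 6 genes each of the lysosome, the pentose phosphate pathway and redox, nucleotide and serine synthesis, and glycolysis, with a separate scale for each panel. Points are libraries, with WT open and KO filled; the lysosomal genes lie above 0 in all 3 KO libraries, Psat1 lies below 0 in them, and Phgdh and Ldha overlap between the groups.

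Cytokine receptors differed for several of the ligands that drive myeloid cells. Of 38 tested receptors 14 rose and 2 fell (median 0.81). Receptors for the 2 cytokines in the medium differed in opposite directions. Il6ra, the binding chain for the IL-6 in the medium, stood at 67.6, 48.4, 27.0 and 44.99 CPM in the WT libraries and 135, 159 and 153 CPM in the KO libraries (log2 fold change 1.66 ± 0.28, adjusted p = 0.014), while the shared signal chain Il6st stood at 46.5, 37.3, 70.8 and 67.8 CPM in WT and 77.2, 107 and 66.4 CPM in KO (adjusted p = 0.15). Kit, the receptor for the other cytokine in the medium, fell, as given above. The GM-CSF receptor chains Csf2ra and Csf2rb rose, Csf2ra at 30.7, 21.8, 17.6 and 26.2 CPM in the WT libraries and 65.8, 72.4 and 47.8 CPM in the KO libraries (log2 fold change 1.37 ± 0.22, adjusted p = 0.013). Among interferon receptor chains Ifngr1 rose from 171 to 483 CPM. Ifnar1 and Ifnar2 rose with log2 fold changes of 0.84 and 0.57, and the TNF receptors Tnfrsf1a and Tnfrsf1b with 1.04 and 1.70. Il4ra, the IL-4 receptor chain, stood at 105, 111, 113 and 131 CPM in the WT libraries and 216, 247 and 213 CPM in the KO libraries (log2 fold change 0.97 ± 0.09, adjusted p = 0.0074), with the 2 groups well apart. The G-CSF receptor Csf3r was at 149, 173, 15.5 and 78.5 CPM in WT and 316, 351 and 384 CPM in KO, short of the threshold. After leaving out KO 1, KO 2 and WT 4, 4, 1 and 6 receptors rose. The medians within the codes were 0.70 and 0.78.

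Downstream of the receptors, 6 of 30 tested JAK-STAT genes rose and 3 fell. Stat5a, which acts below the IL-3 family and KIT receptors, stood at 157, 159.7, 156 and 161 CPM in the WT libraries and 115, 89.8 and 96.2 CPM in the KO libraries (log2 fold change -0.66 ± 0.09, adjusted p = 0.0097). Stat6, which acts below the IL-4 receptor, stood at 149.8, 132, 119 and 129 CPM in the WT libraries and 219, 244 and 191 CPM in the KO libraries (log2 fold change 0.72 ± 0.11, adjusted p = 0.011). The feedback inhibitor Socs3, a target of IL-6 signalling, rose from 46.3 to 68.7 CPM, and Stat3, its activator, stood at 299, 371, 392 and 388 CPM in WT and 327, 295 and 314 CPM in KO (adjusted p = 0.16). The phosphatases Ptpn1 and Ptpn6 rose with log2 fold changes of 0.56 and 0.57. The kinase Jak2 did not pass (adjusted p = 0.18). Of 34 tested RAS-MAPK genes 9 rose and 8 fell. Those that fell included feedback inhibitors: Spry1 stood at 14.3, 16.1, 21.7 and 22.6 CPM in the WT libraries and 6.65, 5.99 and 7.25 CPM in the KO libraries (log2 fold change -1.49 ± 0.19, adjusted p = 0.0093), and Spred1, Spred2, Dusp4 and Dusp10 had log2 fold changes of -0.86, -0.42, -1.11 and -0.83. The GTPase activators Rasa1 and Nf1 fell with log2 fold changes of -0.71 and -0.34. The exchange factors Rasgrp4 and Rasgrp2, which switch RAS and RAP on, rose from 7.21 to 33.2 CPM and from 42.9 to 101 CPM. The phosphatase Dusp7 went the other way, with 0.42. The sign of the median of both lists changed with the scaling. Without KO 1, KO 2 and WT 4, 4, 2 and 6 of the RAS-MAPK genes passed in either direction, and 3, 3 and 5 of the JAK-STAT genes.

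Of 24 tested immediate early genes, which respond to signals quickly, 2 rose and 4 fell. Fos stood at 13.4, 9.23, 9.14 and 5.40 CPM in the WT libraries and 41.9, 56.6 and 15.8 CPM in the KO libraries (log2 fold change 2.04 ± 0.47, adjusted p = 0.025), while Egr3 fell from 18.8 to 2.80 CPM and the nuclear receptors Nr4a1 and Nr4a2 fell with log2 fold changes of -0.98 and -1.07. Jun and Egr1 overlapped between the groups. In the PI3K and mTOR list 4 of 29 tested members rose and 2 fell. Akt1 and Akt2 had log2 fold changes of -0.22 and -0.22 and did not pass. Pik3cd, the leukocyte catalytic subunit, rose from 65.5 to 157 CPM. In the BCL2 family 1 of 14 rose, the BH3-only gene Bmf (from 8.52 to 20 CPM), and 1 fell, Bok (from 1.24 to 0.332 CPM). Mcl1 and Bcl2 did not pass. The share past in either direction was 25% of the immediate early list, 20.7% of the PI3K list and 14.3% of the BCL2 list. Of all genes tested it was 24.4%. In the fits without KO 1, KO 2 and WT 4 the calls were 0, 0 and 1 in the immediate early list and 1, 1 and 1 in the PI3K list. In the BCL2 family they were 1, 0 and 2.

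Innate immune sensing genes were higher. Of 23 tested Toll-like receptor genes and adaptors 10 rose and 0 fell (median 1.17, within the codes 0.95 and 1.31). Tlr2, the receptor for bacterial lipoproteins, stood at 34.3, 19.4, 13.8 and 21.9 CPM in the WT libraries and 67.0, 95.2 and 52.1 CPM in the KO libraries (log2 fold change 1.68 ± 0.33, adjusted p = 0.018). Tlr7, an endosomal receptor for RNA, stood at 12.2, 3.67, 4.54 and 5.82 CPM in the WT libraries and 29.3, 45.7 and 23.6 CPM in the KO libraries (log2 fold change 2.34 ± 0.45, adjusted p = 0.018). Unc93b1, which carries the endosomal receptors to their place, stood at 128, 65.3, 18.3 and 56.9 CPM in the WT libraries and 298, 368 and 231 CPM in the KO libraries (log2 fold change 2.16 ± 0.57, adjusted p = 0.037). Tlr4 rose from 18.7 to 37.9 CPM, and its co-receptor Cd14 was at 73.9, 55.1, 7.70 and 20.9 CPM in WT and 149, 167 and 87.6 CPM in KO (adjusted p = 0.11). The common adaptor Myd88 did not pass (adjusted p = 0.087). In the NF-kB and inflammasome list 11 of 33 rose and 0 fell (median 0.34, within the codes 0.42 and 0.41). The inflammasome sensor Nlrp1b stood at 1.31, 0.611, 0.374 and 0.813 CPM in the WT libraries and 11.8, 14.3 and 17.2 CPM in the KO libraries (log2 fold change 4.24 ± 0.40, adjusted p = 0.0074), and the adaptor Pycard rose from 64.7 to 96.6 CPM. The NF-kB subunits Nfkb1 and Rela had log2 fold changes of -0.14 and -0.08 and did not pass, while the inhibitors Nfkbia and Nfkbie rose with 0.42 and 0.79. In the interferon list 12 of 44 rose and 1 fell. Ifitm3, an antiviral membrane protein, stood at 281, 286, 301 and 271 CPM in the WT libraries and 436, 465 and 429.8 CPM in the KO libraries (log2 fold change 0.64 ± 0.06, adjusted p = 0.0074), and B2m and H2-D1, which form class I molecules, rose with log2 fold changes of 0.75 and 0.91. H2-D1 belongs to a family of similar copies, and its counts are uncertain. Ifit2, a target of type I interferon, fell, at 27.1, 32.3, 30.4 and 29.9 CPM in the WT libraries and 13.7, 12.7 and 16.1 CPM in the KO libraries (log2 fold change -1.08 ± 0.11, adjusted p = 0.0074), and the target Isg15 had a value of 0.22 and did not pass. After leaving out KO 1, KO 2 and WT 4 the Toll-like receptor count was 0, 0 and 1, the NF-kB count 3, 1 and 5 and the interferon count of genes that rose 2, 2 and 3.

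Kinases and receptors of the immunoreceptor pathways included both activating and inhibitory members that rose. Of 36 tested genes 13 rose and 0 fell (median 1.02, within the codes 1.35 and 1.09). The kinases Fes, Lyn and Fgr rose with log2 fold changes of 1.11, 0.62 and 2.47, whereas Syk had a value of -0.04 ± 0.29 and did not pass. Fes stood at 157, 124, 105 and 129 CPM in the WT libraries and 273, 306 and 253 CPM in the KO libraries (log2 fold change 1.11 ± 0.14, adjusted p = 0.009). The inhibitory receptors Pirb, Sirpa and Cd33 rose. Sirpa, which binds CD47, stood at 270.3, 139.7, 36.8 and 96.0 CPM in the WT libraries and 685, 929 and 518 CPM in the KO libraries (log2 fold change 2.39 ± 0.61, adjusted p = 0.034), and its ligand gene Cd47 rose from 562 to 783 CPM. Pirb stood at 52.7, 24.8, 10.6 and 23.6 CPM in the WT libraries and 151, 201 and 111 CPM in the KO libraries (log2 fold change 2.47 ± 0.51, adjusted p = 0.02). Pirb and Pira2 belong to a family of near-identical copies, and their counts are uncertain. Without KO 1, KO 2 and WT 4, 5, 3 and 6 of these genes rose.

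The windows of 3 genes that rose are shown because they hold the PU.1 word GAGGAAGT, in capitals on either strand, and PU.1 is the factor encoded by Spi1. They are chr7:3720383-3720632 for Pirb, chrX:134601006-134601255 for the lysosomal galactosidase Gla and chr5:64933559-64933808 for Tlr1, each on the minus strand and read in the direction of the gene as above.
Pirb: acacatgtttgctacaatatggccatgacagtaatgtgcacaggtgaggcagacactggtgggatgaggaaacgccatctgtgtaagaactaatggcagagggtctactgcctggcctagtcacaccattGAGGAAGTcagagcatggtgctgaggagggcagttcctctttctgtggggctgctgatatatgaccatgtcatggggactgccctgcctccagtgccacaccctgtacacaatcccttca
Gla: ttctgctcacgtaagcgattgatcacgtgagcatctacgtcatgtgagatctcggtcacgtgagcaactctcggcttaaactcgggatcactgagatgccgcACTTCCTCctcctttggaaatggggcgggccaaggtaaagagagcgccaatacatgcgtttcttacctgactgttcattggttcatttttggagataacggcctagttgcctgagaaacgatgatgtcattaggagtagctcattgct
Tlr1: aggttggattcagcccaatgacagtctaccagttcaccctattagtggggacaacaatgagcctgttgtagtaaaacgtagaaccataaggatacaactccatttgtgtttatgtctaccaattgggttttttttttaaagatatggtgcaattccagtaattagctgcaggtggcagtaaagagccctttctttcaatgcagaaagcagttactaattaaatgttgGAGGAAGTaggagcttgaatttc
The word stood in 4 of 33 windows of the tested monocyte genes (12.1%), 4 of 31 windows of the immunoreceptor genes (12.9%), 4 of 31 windows of the lysosomal genes (12.9%) and 2 of 23 windows of the Toll-like receptor genes (8.7%). It stood in 3.34% of the windows of all genes tested, in 4.63% of windows of genes that rose and in 3.08% of windows of genes that fell. Of the genes with a window, 3 of 25 monocyte, 4 of 27 immunoreceptor, 4 of 26 lysosomal and 2 of 17 Toll-like receptor genes held the word. Among all genes tested it was 406 of 10144. Some genes are on more than 1 of these lists. Gla rose from 41.5 to 109 CPM and Tlr1 from 1.82 to 9.26 CPM.

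Genes of movement and adhesion were higher in part. Of 34 tested chemokines and receptors 8 rose and 1 fell. Ccr2, the receptor that draws monocytes from marrow, stood at 304, 299.6, 92.3 and 209.6 CPM in the WT libraries and 692, 809 and 485 CPM in the KO libraries (log2 fold change 1.55 ± 0.41, adjusted p = 0.037). Cxcr4, which holds cells in marrow, stood at 108, 81.6, 86.9 and 104 CPM in the WT libraries and 138, 149 and 129 CPM in the KO libraries (log2 fold change 0.54 ± 0.11, adjusted p = 0.02). The gene that fell was the lipid receptor S1pr1 (from 50.4 to 37.2 CPM). Of 37 tested adhesion genes 9 rose and 3 fell. Itgb2, the common beta chain of leukocyte integrins, stood at 299, 254, 149.7 and 190.0 CPM in the WT libraries and 494, 617 and 379 CPM in the KO libraries (log2 fold change 1.15 ± 0.27, adjusted p = 0.026). Esam, a junction protein also used to mark stem cells, stood at 29.4, 55.6, 60.01 and 50.2 CPM in the WT libraries and 15.7, 8.24 and 11.97 CPM in the KO libraries (log2 fold change -2.03 ± 0.32, adjusted p = 0.013). Of 39 tested cytoskeleton genes 10 rose and 0 fell, with Rac2, Rhog and the myosin Myo1f at log2 fold changes of 0.59, 1.07 and 1.79. Actb, at 2771, 3096, 3259 and 3134 CPM in WT and 3592, 3432 and 3079 CPM in KO, did not pass. With the fits repeated without KO 1 the counts that rose were 2, 3 and 3 for the 3 lists, and without KO 2 0, 2 and 1. Without WT 4 they were 2, 3 and 3.

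In the TGF-beta, BMP, WNT and Notch list 5 of 34 tested genes rose and 6 fell. Sfrp2, a secreted WNT inhibitor, stood at 26.5, 16.1, 33.6 and 29.7 CPM in the WT libraries and 1.43, 0.943 and 2.89 CPM in the KO libraries (log2 fold change -3.87 ± 0.46, adjusted p = 0.009), and the co-receptor Tgfbr3 fell from 18.8 to 3.30 CPM. Notch1 rose from 26.6 to 77.3 CPM and its feedback target Nrarp fell from 21.3 to 14.4 CPM. Dlk1, a paternally expressed Notch relative, stood at 3.76, 7.12, 60.01 and 35.6 CPM in the WT libraries and 0.285, 0.205 and 1.498 CPM in the KO libraries (log2 fold change -5.16 ± 1.31, adjusted p = 0.033). Among the WT libraries it was higher in WT 3 and WT 4, those of the second code. The non-coding gene Meg3 of its imprinted locus stood at 0, 3.51, 13.1 and 16.9 CPM in the WT libraries and 0, 0 and 1.15 CPM in the KO libraries and did not pass. Rian, another of the locus, stood at 0.0939, 9.92, 35.1 and 47.6 CPM in the WT libraries and 0, 0.041 and 3.26 CPM in the KO libraries and did not pass. WT 1, KO 1 and KO 2 held 0 or near 0 of both. Of 13 tested imprinted genes Dlk1 was the 1 that passed. Of 30 tested chromatin regulators 9 fell and 4 rose. The Polycomb methyltransferase Ezh2 stood at 183, 175, 169 and 160.4 CPM in the WT libraries and 126, 124 and 129.8 CPM in the KO libraries (log2 fold change -0.44 ± 0.06, adjusted p = 0.0097). Its paralogue Ezh1 stood at 37.5, 36.5, 40.2 and 36.2 CPM in the WT libraries and 50.6, 54.2 and 47.0 CPM in the KO libraries (log2 fold change 0.43 ± 0.07, adjusted p = 0.013), so this pair of enzymes changed in opposite directions. The DNA dioxygenases Tet1 and Tet2 also went opposite ways (-0.59 and 0.50). With the fits repeated without KO 1, KO 2 and WT 4 the calls were 3, 1 and 9 among chromatin regulators and 2, 1 and 3 in the TGF-beta, WNT and Notch list.

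**Figure D5:**
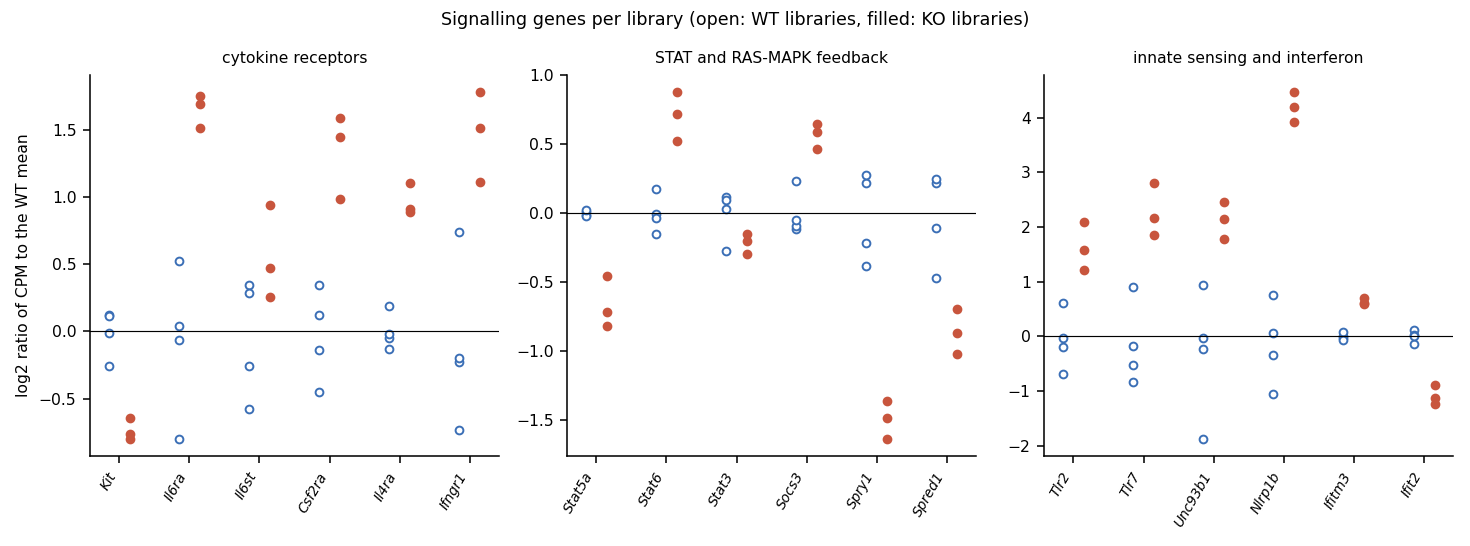
Level relative to the mean of the WT libraries (log2 ratio of CPM, vertical axis) in each of the 7 libraries for cytokine receptors, STAT and feedback genes, and innate sensing genes, with a separate scale for each panel. Points are libraries, with WT open and KO filled; Il6ra, Csf2ra and Il4ra lie above 0 and Kit, Stat5a, Spry1 and Ifit2 below 0 in all 3 KO libraries.

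The genes with the smallest adjusted p, at least a 2-fold change and no overlap between the groups were spread over these themes and beyond them. Lrmda, a leucine-rich protein of melanocyte differentiation, stood at 1.60, 1.12, 1.24 and 1.47 CPM in the WT libraries and 24.7, 26.8 and 23.7 CPM in the KO libraries (log2 fold change 4.21 ± 0.15, adjusted p = 0.0001), the smallest adjusted p of all genes tested. Stab1, a scavenger receptor of macrophages, stood at 19.1, 17.5, 9.57 and 7.95 CPM in the WT libraries and 132, 136 and 118 CPM in the KO libraries (log2 fold change 3.25 ± 0.33, adjusted p = 0.0078). Adgre4, a relative of F4/80, rose from 47.6 to 160.0 CPM, Cyp4f16, a fatty acid hydroxylase, from 28.0 to 75.8 CPM, and Il18bp, the soluble inhibitor of IL-18, from 5.80 to 16.7 CPM. Xaf1, an interferon target, rose from 5.13 to 22.4 CPM, Dbn1, an actin-binding protein, from 6.66 to 20.2 CPM, and Nxpe5, Abhd15, Fzd1 and AA465934 rose with log2 fold changes of 1.78, 1.06, 1.61 and 3.32. Among genes that fell, Pcdh7, a protocadherin, stood at 111, 97.7, 97.7 and 124 CPM in the WT libraries and 47.9, 42.6 and 47.3 CPM in the KO libraries (log2 fold change -1.23 ± 0.10, adjusted p = 0.0069), and Phc1, a subunit of Polycomb complex PRC1, at 32.6, 36.7, 45.3 and 44.1 CPM in the WT libraries and 16.7, 13.4 and 12.5 CPM in the KO libraries (log2 fold change -1.49 ± 0.16, adjusted p = 0.0078). Hmces, which shields abasic sites in single-stranded DNA, fell from 31.5 to 14.2 CPM, Psrc1, a spindle protein, from 29.0 to 12.5 CPM, and Gimap1, a lymphoid GTPase, from 16.8 to 4.33 CPM. The transporters Slc7a4 and Slc43a1 fell from 8.91 to 0.818 CPM and from 40.2 to 19.7 CPM, and Ctnnal1, Fut10, Map7 and Dlg3 fell with log2 fold changes of -1.16, -1.21, -1.02 and -1.18. Nlrp1b, given above, belongs to the same set. Eif5al3-ps and Eno1b, which also rose, have near-identical copies elsewhere in the genome, and their counts are uncertain.

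Of the 228 genes named here that passed, 71 also passed without KO 1 and 56 without KO 2. Without WT 4, WT 2 and KO 3 the counts were 124, 181 and 191. Many of the 228 were named for a small adjusted p in these same libraries, which favours them in such fits. Of all 3399 genes past the threshold, 278 passed in all 7 fits that leave out 1 library. Of the 228 named genes, 54 did. Among these 54 the cell cycle was represented by Cdk6, Mcm2, Mcm3, Mcm4, Lig1, Prim1, Pole, Dut, Uhrf1, Cdkn2c, E2f7 and Clspn. Stem cell, Hox and lineage genes among them were Nbeal2 and Mrc1. Genes of metabolism and the lysosome were Lamp1, Tfe3, Slc40a1 and Sat1. Genes of signalling, immunity, adhesion and chromatin were Il4ra, Stat5a, Stat6, Ptpn1, Spry1, Rasgrp4, Nlrp1b, Ifitm3, Ifit2, Fes, Lyn, Sfrp2 and Xaf1. The others belonged to no list and were Lrmda, Stab1, Adgre4, Cyp4f16, Il18bp, Dbn1, Nxpe5, Abhd15, Fzd1, AA465934, Pcdh7, Phc1, Hmces, Psrc1, Gimap1, Slc7a4, Slc43a1, Ctnnal1, Fut10, Map7, Dlg3, Eif5al3-ps and Eno1b. For every other gene named as having risen or fallen, the call was lost without at least 1 library.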

How the data were processed

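Total RNA of 7 untransformed HPC-LSK libraries was sequenced. The deposited files hold raw counts per gene made by the authors with featureCounts 1.5.1 on GRCm38 with GENCODE M13, counted by strand, per the file headers; TPM values, also deposited by the authors, follow from those counts and gene lengths and were used only to check them. Lists and genes were chosen with earlier results of these data known. Counts were tested with edgeR 4.0.16 (R 4.3.3): filterByExpr (minimum count 10, minimum total 15), TMM scaling, robust quasi-likelihood fit of the 7 libraries with genotype as the only term, Benjamini-Hochberg adjustment over 13941 genes and a threshold of 0.05. In simulated counts, 50 genes were changed at each fold among 13690 genes. The test recovered 28% of those changed 1.5-fold, 80% at 2-fold and 90% at 4-fold. Far more genes passed in the data, which alters the adjusted p, so these rates need not hold there. Named are Cdk6; per direction the 15 genes of smallest adjusted p with at least 5 CPM in the higher group, a 2-fold change, no overlap and no predicted-gene name; and from each of 52 lists up to 6 members of smallest adjusted p, abundant members that did not pass and members given for their role. Alternatives were DESeq2 1.42.0, limma 3.58.1, other scalings and filters, blocks and leaving out each library. Replicate numbers did not pair the samples. List symbols Azu1, Mnda and Gtl2 matched no gene. Promoter windows are RefSeq's. Some genes that the rule names are not reported here.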

Additional observations from a re-analysis of the deposited data

Results flagged for a closer look

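Among the 4 WT libraries, 9 of 289 named genes had 1 library far from the other 3. For independent, normally spread values this rule flags about 1 in 20 groups. Genes can vary together and many were named for a small adjusted p, so that rate need not be theirs. Whether chance accounts for the 9 was not tested. The 3 KO libraries were too few for this rule. WT 3 was the highest for the mast cell proteases Cma1 (813 CPM, next 12.3) and Mcpt4 (1355 CPM, next 20.8), for Cdc25b (104.6 CPM, next 67.8) and for Nqo1 (24.4 CPM, next 13.7). WT 1 was the highest for Taldo1 (327 CPM, next 263) and Adgre4 (54.8 CPM, next 46.0). WT 1 was the lowest for Rrm1 (687 CPM, next 734), Nop58 (392 CPM, next 425) and Nr4a2 (6.62 CPM, next 10.7). By edgeR's quasi-likelihood test Taldo1 and Adgre4 rose in KO cells, Rrm1, Cdc25b, Nqo1, Nop58 and Nr4a2 fell, and Cma1 and Mcpt4 did not pass. No explanation of these libraries was tested.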

How the results depend on the processing

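The log2 fold change of Cdk6 was -2.14, -2.20 to -2.06 with any 1 library left out, -2.40 within the second code (adjusted p = 0.16 with 1 KO library against 2, too few to say whether it holds there) and past the threshold under every scaling, filter and other tool. The 3399 calls (1734 higher, 1665 lower) became 295 to 3900 with 1 library left out, 177 to 2053 higher and 118 to 1847 lower. The fit of all 14 libraries gave 2211 (944 lower), library size scaling 2916 lower against 1327 higher, a block on the code and letter of the sample descriptions, which the labels do not explain, 949 lower, and the second code alone 0 (0 higher, 0 lower; 3342 at an unadjusted p under 0.05). DESeq2 gave 4818 calls and limma-voom 3634. Upper quartile and library size scaling turned the sign of the medians of the TCA cycle, nuclear oxidative phosphorylation, cytosolic ribosomal protein and RAS-MAPK lists, and library size scaling also of the mast cell, mitochondrial oxidative phosphorylation, fatty acid and JAK-STAT lists. Of 52 list medians, 44 kept their sign whichever library was left out.

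With the replicate number as a block, edgeR gave 0 calls (0 higher, 0 lower; 4287 at an unadjusted p under 0.05), Cdk6 stood at -2.05 (adjusted p = 0.070) and Syk at 0.12. The deviations of same-numbered WT and KO libraries correlated at -0.0395, 0.00871 and 0.129, so the numbers were not taken to pair samples, and WT 4 has no KO partner.

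The log2 fold changes of 17 named genes that did not pass changed sign. Within the second code these were Cdk4 0.0325, Cdc6 0.13, Cdc45 0.22, Rrm2 0.0137, Cd34 0.72, Ly6a 0.76, Lhx2 0.0116, Phgdh 0.27, Myc -0.17, Il6st -0.0399, Isg15 -0.11 and Actb -0.0327. Within the first code they were Cdkn1b 0.0059, Runx1 0.0449 and Syk 0.56. Limma-voom gave Cdc45 0.0213, Cd34 0.0074, Phgdh 0.0042 and Syk 0.0220, and DESeq2 gave Cdc45 0.0002. The filter of 1 CPM in 3 libraries gave Cdc45 0.0066 and Phgdh 0.0034. Myc was at -0.0436 with upper quartile scaling, -0.0984 with library size scaling, -0.0081 with no filter, -0.0494 with the code block and -0.0813 with the block on code and letter. Syk was at 0.0975 with the code block and 0.21 with the block on code and letter, which gave Mcpt4 0.11. With 1 library left out the ranges were -7.32 to 0.23 for Cma1, -6.26 to 0.73 for Mcpt4, -0.0888 to 0.11 for Cdc45, -0.20 to 0.19 for Cd34, -1.02 to 0.0076 for Ly6a, -0.11 to 0.0649 for Phgdh, -0.0777 to 0.14 for Myc and -0.22 to 0.17 for Syk. The cause was not tested. In the simulated counts, changes of 1.5-fold were the least surely found, with 28% recovered. Only 50 genes per fold were changed there, far fewer than passed in the data, so that rate need not hold for the data.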

Other observations

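Genes next to Cdk6 were looked at after their values had been seen, so no test is drawn from them. Gm17590, a predicted gene on the strand opposite to Cdk6 and inside its span (chr5:3472861-3480873, GRCm38), stood at 3.05, 0.927, 0.948 and 1.94 CPM in the WT libraries and at 45.3, 36.5 and 14.6 CPM in the KO libraries. Its log2 fold change was 4.26 ± 0.57, while Cdk6 on the other strand fell, and reads were counted by strand. Fam133b, the next gene tested downstream of Cdk6, stood at 63.7, 68.4, 56.9 and 63.5 CPM in the WT libraries and at 41.2, 45.7 and 42.6 CPM in the KO libraries. Gm42435, which like Gm17590 lies inside Cdk6 on the opposite strand, rose with a log2 fold change of 1.81 ± 0.48. Among the 38 tested genes within 10 Mb of Cdk6, itself included, 3 rose and 10 fell. That is 34.2%, against 24.4% of all genes tested. Over the 20 chromosomes with 100 or more genes tested the share was 20.6% to 29.7%.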
